A study of Homo sapiens with 18 samples.

Results

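The translational efficiency of each mRNA was described in MDA-MB-231 cells, an established human line of triple-negative breast carcinoma, that carried a scramble control hairpin. The 6 libraries used were the 3 ribosome footprint libraries and the 3 cytoplasmic RNA libraries labelled SC, read here as the scramble control, out of 18 in the series. The other 12 come from cells with either of 2 hairpins against fibrillarin and enter only where the control ranking is set beside theirs. Control cells had been grown in insulin-supplemented DMEM, transduced with a lentivirus made from a pLKO.1 plasmid with the scramble insert, kept in 1 µg/ml puromycin for 96 h, returned to fresh medium, and treated the next day with 100 µg/ml cycloheximide for 5 min before lysis. These control cells had therefore seen virus, selection drug and cycloheximide, and no untransduced cells were among the libraries used. Of 17017 genes in the table, 15840 had a count in at least 1 of the 6 libraries and 12042 had enough counts to be tested.

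Ribosome profiling sequences the short stretches of mRNA that a ribosome shields from RNase. The number of footprints on a gene follows both how much of its mRNA there is and how many ribosomes each copy carries. Dividing footprints by RNA gives a relative density of ribosomes on the mRNA, usually called translational efficiency. Cells set this density through the 5' end of the mRNA. A pyrimidine tract directly after the cap, the 5' TOP motif, places ribosomal protein and elongation factor mRNAs under control of the kinase mTORC1. Upstream reading frames hold ribosomes away from the coding sequence of stress regulators such as ATF4, and a hairpin in ferritin mRNAs, the iron-responsive element, blocks initiation when iron is scarce.

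The starts of TOP mRNAs come first, because their efficiency is known to follow growth signals, and these carry the feature by which the class is defined. The sequences are the first 30 transcribed bases from NCBI RefSeq (GRCh38.p14), 5' to 3'. Capitals mark the unbroken pyrimidine run from the first base.

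RPLP2, chr11:809967-809996, plus strand: CCTTTTCCTCCCTgtcgccaccgaggtcgc

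RPS6, chr9:19380207-19380236, minus strand: CTCTTTTCCgtggcgcctcggaggcgttca

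EEF1A1, chr6:73521003-73521032, minus strand: CTTTTTCgcaacgggtttgccgccagaaca

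EEF2, chr19:3985434-3985463, minus strand: CTCTTCCgccgtcgtcgccgccatcctcgg

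TPT1, chr13:45341154-45341183, minus strand: CTTTTCCgcccgctcccccctccccccgag

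PTMA, chr2:231708525-231708554, plus strand: CCCCCactggctgctctgaaaagccatctt

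RPLP2 and RPS6 encode proteins of the large and small ribosomal subunit, EEF1A1 and EEF2 are elongation factors, TPT1 is the translationally controlled tumour protein, and PTMA is prothymosin alpha, a small acidic nuclear protein. The run measured 13 bases in RPLP2, 9 in RPS6, 7 in EEF1A1, EEF2 and TPT1, and 5 in PTMA.

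The loop of the iron-responsive element of FTL, the ferritin light chain, is shown because FTL was among the mRNAs with the fewest footprints per RNA. The window covers transcribed bases 21 to 50, and capitals mark the loop CAGTGT.

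FTL, chr19:48965329-48965358, plus strand: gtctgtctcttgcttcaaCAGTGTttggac

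GC content around the start went with the ratio across genes, so 4 starts of mRNAs with a high ratio are set against 4 with a low ratio. They are the first 30 transcribed bases with G and C in capitals, chosen after their values were seen. First the high ratio:

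SERINC1, chr6:122471778-122471807, minus strand: aatCtCGGaaaGGCGaGaaaGaaGCtGtCt

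S100A10, chr1:151993830-151993859, minus strand: aCCCaCCCGCCGCaCGtaCtaaGGaaGGCG

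HSP90B1, chr12:103930410-103930439, plus strand: aGtGGGCGGaCCGCGCGGCtGGaGGtGtGa

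ARPC5, chr1:183635754-183635783, minus strand: aGtCGGCGaCGCCtCaGaGCGGaaGaGGGa

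And the low ratio:

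ZNF358, chr19:7516103-7516132, plus strand: CCCtCtCGCtCCCCGGGaGCGCCtGGCGGG

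USF3, chr3:113696613-113696642, minus strand: GGGaaaGttGaGGCCGCGCtGCCGCCGGGt

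MAP3K11, chr11:65614192-65614221, minus strand: GtCGGaGCCGtCGGGGCCaaaGGaGaCGGG

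VEGFB, chr11:64234584-64234613, plus strand: GCCGtCCCCGCCGCCGCtGCCCGCCGCCaC

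G and C made up 48.0% of the first 50 bases in SERINC1, 74.0% in S100A10, 72.0% in HSP90B1 and 64.0% in ARPC5. The share was 86.0% in ZNF358, 74.0% in USF3, 70% in MAP3K11 and 94.0% in VEGFB.

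The RNA libraries held 24430219 to 26541640 counted reads and the footprint libraries 2486598 to 6098648, with footprint library 2 the shallowest. Pearson's r of log2 CPM (counts scaled to a fixed library total) between 2 RNA libraries was 0.986 to 0.995 and between 2 footprint libraries 0.956 to 0.979. Between an RNA and a footprint library it was 0.868 to 0.90. RNA library 1 stood apart from the other 2 RNA libraries, with a chi-square per degree of freedom of 60.6 and 52.8 against them and 12.4 between them. The labels do not say whether the libraries of a group came from separate cultures, so every p-value here measures the spread between these libraries, which may be technical.

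The ratio is given as log2 of footprint CPM over RNA CPM after TMM scaling, which sets the typical gene near 0, so it is a relative measure and says nothing of the total rate of protein synthesis. Gene length cancels only where footprints and RNA reads were counted over the same stretch of the gene, which is not given in the sources used here. Over the 12042 genes the median was -0.05, the interquartile range ran from -0.84 to 0.59, and the 5th and 95th percentiles were -2.25 and 1.37. A gene was called high at a log2 ratio of at least 1 (2-fold) with an adjusted p under 0.05 in edgeR's quasi-likelihood test, and low at -1 or less. By this rule 1361 genes (11.3%) were high and 2442 (20.3%) were low, and the low tail was the longer one. When libraries are scaled by their totals alone, every ratio shifts down, the median goes to -0.25, and the split becomes 862 high and 3014 low. All values below are on the TMM scale.

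**Figure D1:**
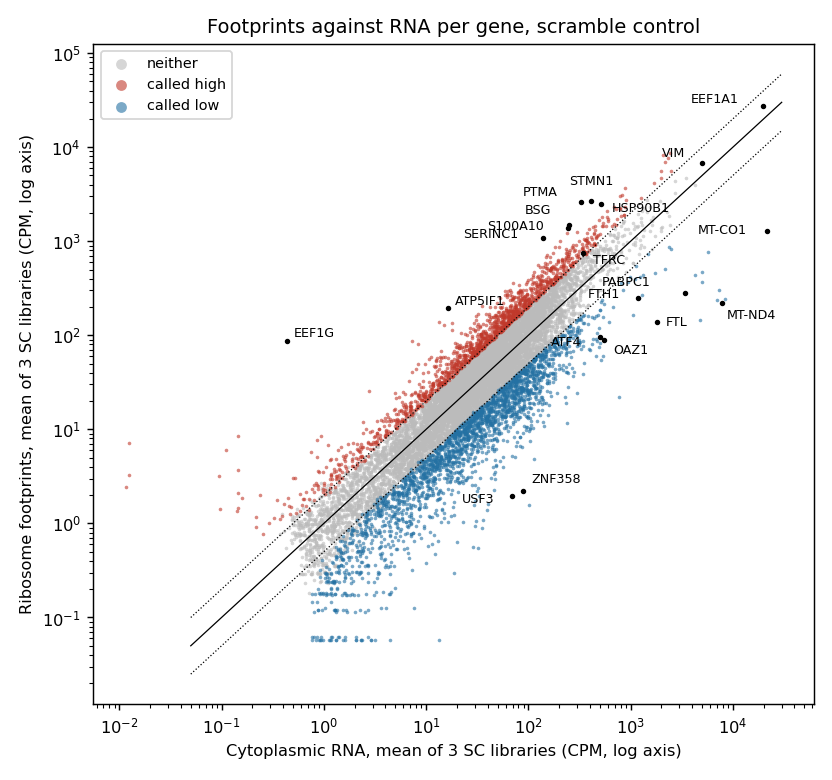
Mean footprint CPM against mean RNA CPM of the 3 SC libraries of each kind, both on log axes, for tested genes with a mean above 0 in both. Red points are called high and blue points low, the solid line marks equal CPM, and the dotted lines mark 2-fold. The 2442 low genes reach further from the line than the 1361 high genes.

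The mRNAs with the most footprints per RNA are given first. ATP5IF1, the inhibitor of the mitochondrial ATP synthase, had 16.4, 16.3 and 16.1 CPM in the RNA libraries and 233, 169 and 177 CPM in the footprint libraries. The footprint libraries were all above the RNA libraries, 11.9-fold in the fit (log2 ratio 3.57, SE 0.15, adjusted p = 1.31e-06). MTLN, which encodes a mitochondrial micropeptide, had 6.59, 6.68 and 8.80 CPM of RNA and 87.0, 90.2 and 81.1 CPM of footprints, a log2 ratio of 3.54. Beside these stood TMA7 at 3.41, SMIM4 at 3.27, SRP14 of the signal recognition particle at 3.10, GOLT1B at 2.89, MZT1 of the gamma-tubulin ring at 2.70 and NGRN at 2.58. TMA7 and NGRN overlap other genes, and SRP14, MZT1 and NGRN have 5, 2 and 4 pseudogenes in RefSeq.

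High ratios also marked abundant mRNAs. PTMA had 283, 331 and 362 CPM of RNA against 3399, 1699 and 2820 CPM of footprints, a log2 ratio of 3.02 (SE 0.25). STMN1, the microtubule-destabilizing stathmin, had 386, 409 and 432 CPM of RNA and 2725, 2388 and 2932 CPM of footprints. Its ratio was 6.56-fold (log2 2.71, SE 0.13). Membrane proteins were represented by SERINC1 and BSG (basigin, the partner of lactate transporters). SERINC1 had 149, 139 and 126 CPM of RNA and 878, 1332 and 1047 CPM of footprints (log2 ratio 2.97, SE 0.17), and BSG had 274, 246 and 221 CPM against 1189, 1598 and 1716 CPM (log2 ratio 2.60, SE 0.17). For PTMA, STMN1, SERINC1 and BSG alike the lowest footprint library lay above the highest RNA library. These genes, like ATP5IF1, were picked by their high ratio. Such separation follows largely from that choice and adds no support of its own. PTMA and STMN1 have 15 and 2 pseudogenes in RefSeq.

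At the other end, ZNF358, a zinc finger gene, had 92.0, 80.05 and 91.8 CPM of RNA and 1.73, 2.17 and 2.81 CPM of footprints. That is a 39.2-fold deficit (log2 ratio -5.29, SE 0.19, adjusted p = 1.31e-06). USF3, a transcription factor gene, had 59.1, 79.8 and 70.8 CPM of RNA and 3.29, 1.30 and 1.31 CPM of footprints (log2 ratio -5.03, SE 0.28). Both mRNAs were present in every RNA library and nearly empty of footprints. ZNF219 at -5.58, ANKRD9 at -5.18, METRN at -5.09 and SHANK3, a synaptic scaffold gene, at -4.98 were as low, each with at most 9 footprint counts in any library. ZNF219 and ANKRD9 overlap other genes.

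Several of the most extreme ratios belonged to genes with nearly no reads in one kind of library, and these are uncertain. FKBP2 had 0 RNA counts in each library and 38 to 107 footprint counts, at least 132-fold higher when 3 counts per library are taken as the floor. H4C12, H4C11 and UQCR11 had 0 footprint counts in all 3 libraries, with 547 to 1016, 436 to 782 and 498 to 675 RNA counts. Their footprints were at least 33.6-fold, 27.3-fold and 27.2-fold lower. ATP6V0C had 0 to 1 footprint counts and NDUFV2 and NBPF10 0 to 3. EEF1G, a subunit of the elongation factor complex, had 9 to 15 RNA counts and 98 to 942 footprint counts. EIF3C had 2 to 5 and 29 to 41. How reads that match several genes were counted is not given in the sources used here, and many of these genes overlap another annotated gene or have near-identical copies. Of the tested genes, 2004 have a pseudogene named after them in RefSeq and 2924 overlap another protein-coding gene. Those with a pseudogene had a median of 0.27, with 19.9% high and 15.6% low. Those with an overlap had a median of -0.09, with 9.64% high and 21.9% low. Pseudogenes are thus not confined to low genes, and PTGES3, PKM and CTSL, high genes named below, have 5, 5 and 6. The 7589 with neither sign had a median of -0.09, with 756 high (9.96%) and 1570 low (20.7%). These signs do not cover near-identical copies of a gene. H4C12, H4C11, UQCR11, NBPF10 and EIF3C have neither sign. Whether reads shared with other genes play a part in their values was not tested.

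Summing the counts of near-identical genes, a set of families chosen after the values were seen, gave a different picture for some of them. The tested H4 core histone genes ran from -11.75 for H4C12 to 8.89 for H4C5, where H4C5 had 0 RNA counts. The sum of all 13 H4 genes, of which 8 were tested, was 1670 ± 369 CPM of RNA and 4420 ± 1298 CPM of footprints (SD, n = 3), a log2 ratio of 1.40. NME2, at 3.25, and its neighbour NME1 together gave 1.77. The 12 NBPF genes, of which 10 were tested, stayed low as a sum, with 177 ± 3.22 CPM of RNA and 8.69 ± 6.58 CPM of footprints. So did POM121 with POM121C, a nuclear pore pair, at -3.82.

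Protein folding, protein breakdown and calcium-binding genes lay in the upper part of the ranking. The counts of every list from here on are to be read against the 11.3% high and 20.3% low of all genes. The listed members named from here on are the highest and lowest of each list, the mRNAs with well-known translational control, and others picked after their values were seen. S100 proteins, small calcium sensors abundant in carcinoma cells, had the highest median of the 44 functional lists, 1.75 or 3.36-fold, with 9 of 11 members high and 0 low. S100A10, the annexin A2 partner, had 220.0, 263 and 255 CPM of RNA and 1273, 1329 and 1559 CPM of footprints (log2 ratio 2.50, SE 0.14, adjusted p = 2.49e-06). S100A4, linked to cell motility, was at 2.37. The members not called were S100A2 at 0.59, where the libraries of the 2 kinds overlapped, and S100PBP at 0.29, which encodes a binding partner and not an S100 protein.

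Cytosolic heat shock proteins followed with a median of 1.15 and 13 of 19 members high and 0 low. HSP90AA1 had 2119, 1959 and 2095 CPM of RNA and 7546, 8630 and 8526 CPM of footprints, a 4.00-fold excess. PTGES3, the HSP90 cochaperone p23, was the highest at 2.26 (SE 0.13). HSPA8, the constitutive HSP70, was at 1.15 and dropped under the 2-fold minimum with plain library totals, at 0.95. The stress-inducible HSPA1A at 0.21, HSPA1B at -0.17 and DNAJB1 at -0.07 were not called. In the secretory pathway 11 of 21 endoplasmic reticulum chaperones were high and 0 low, with a median of 1.05. The 16 with neither a pseudogene nor an overlap had a median of 0.76. HSP90B1 had 596, 539 and 414 CPM of RNA and 2351, 2827 and 2206 CPM of footprints (log2 ratio 2.25, SE 0.17), and calreticulin, CALR, was at 2.05. The unfolded protein response genes XBP1 at -0.49 and EDEM1 at -0.88 were not called high. Of the TRiC/CCT chaperonin, which folds actin and tubulin, all 8 subunits had a ratio above 0, from 0.52 for TCP1 to 1.34 for CCT8, and 3 were high.

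The proteasome list had 15 of 32 subunits high and 1 low, with a median of 0.94. PSMB1, a subunit of the core particle, was the highest at 1.78, and PSMA1, which has a pseudogene in RefSeq, was the one low subunit at -1.41. Lysosomal proteins had 11 of 24 high and 0 low (median 0.91), led by the protease CTSL at 2.05 and the membrane protein LAMP1 at 1.90. LAMP1 had 194, 128 and 119 CPM of RNA and 347, 711 and 584 CPM of footprints. The vacuolar ATPase that acidifies the lysosome had 8 of 16 high, from ATP6V0E1 at 2.22 downward, and 1 low, ATP6V0C, described above.

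The actin cytoskeleton, glycolysis and sterol synthesis lists had medians above that of all genes, and the tubulins did not. The actin cytoskeleton list had 15 of 37 members high and 1 low (median 0.84, and 0.57 in the 10 with neither a pseudogene nor an overlap). ARPC5 of the Arp2/3 complex had 176, 165 and 177 CPM of RNA and 853, 673 and 741 CPM of footprints (log2 ratio 2.13, SE 0.13). The low member was ARPC1A at -2.21, which has 4 pseudogenes in RefSeq. ACTB itself was at -0.12 (SE 0.14, adjusted p = 0.488). Tubulins were split, with 3 high (27.3%), 2 low (18.2%, near the 20.3% of all genes) and a median of -0.16 in 11. Glycolytic enzymes had 5 of 16 high and 0 low (median 0.77). PKM, the pyruvate kinase of proliferating cells, had 2003, 2166 and 2342 CPM of RNA and 6368, 6513 and 7841 CPM of footprints, a 3.18-fold excess (SE 0.14 on the log2 scale). LDHA was at 1.30, GAPDH at 0.43 and PFKL, the lowest, at 0.04. Sterol synthesis genes had 8 of 27 high, with MSMO1 at 1.86, and 1 low, the transcription factor SREBF2 at -1.20 (-0.97 without both libraries numbered 1).

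The hnRNP and SR lists had high medians, and the nonsense-mediated decay list was divided. hnRNP proteins had 11 of 20 high and 0 low (median 1.03), with HNRNPD, the decay factor AUF1, at 2.14. The 5 with neither a pseudogene nor an overlap had a median of 0.64. HNRNPA1, counted with the TOP mRNAs, went the other way at -2.19, and it has 75 pseudogenes in RefSeq. SR splicing factors had 7 of 12 high and 2 low (median 1.10, and 1.22 in the 4 with neither a pseudogene nor an overlap). SRSF11 was at 2.33 and SRSF1 at -2.39, with 478 to 614 RNA counts and 6 to 34 footprint counts. Nonsense-mediated decay factors were split between the exon junction proteins RBM8A at 1.67 and MAGOH at 1.5 and the SMG proteins SMG5 at -1.96 and SMG1 at -1.46. For MAGOH the RNA libraries held 55.5, 67.6 and 67.8 CPM and the footprint libraries 177, 170 and 192 CPM, and for SMG5 they held 283, 231 and 258 CPM against 63.3, 67.3 and 67.4 CPM.

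**Figure D2:**
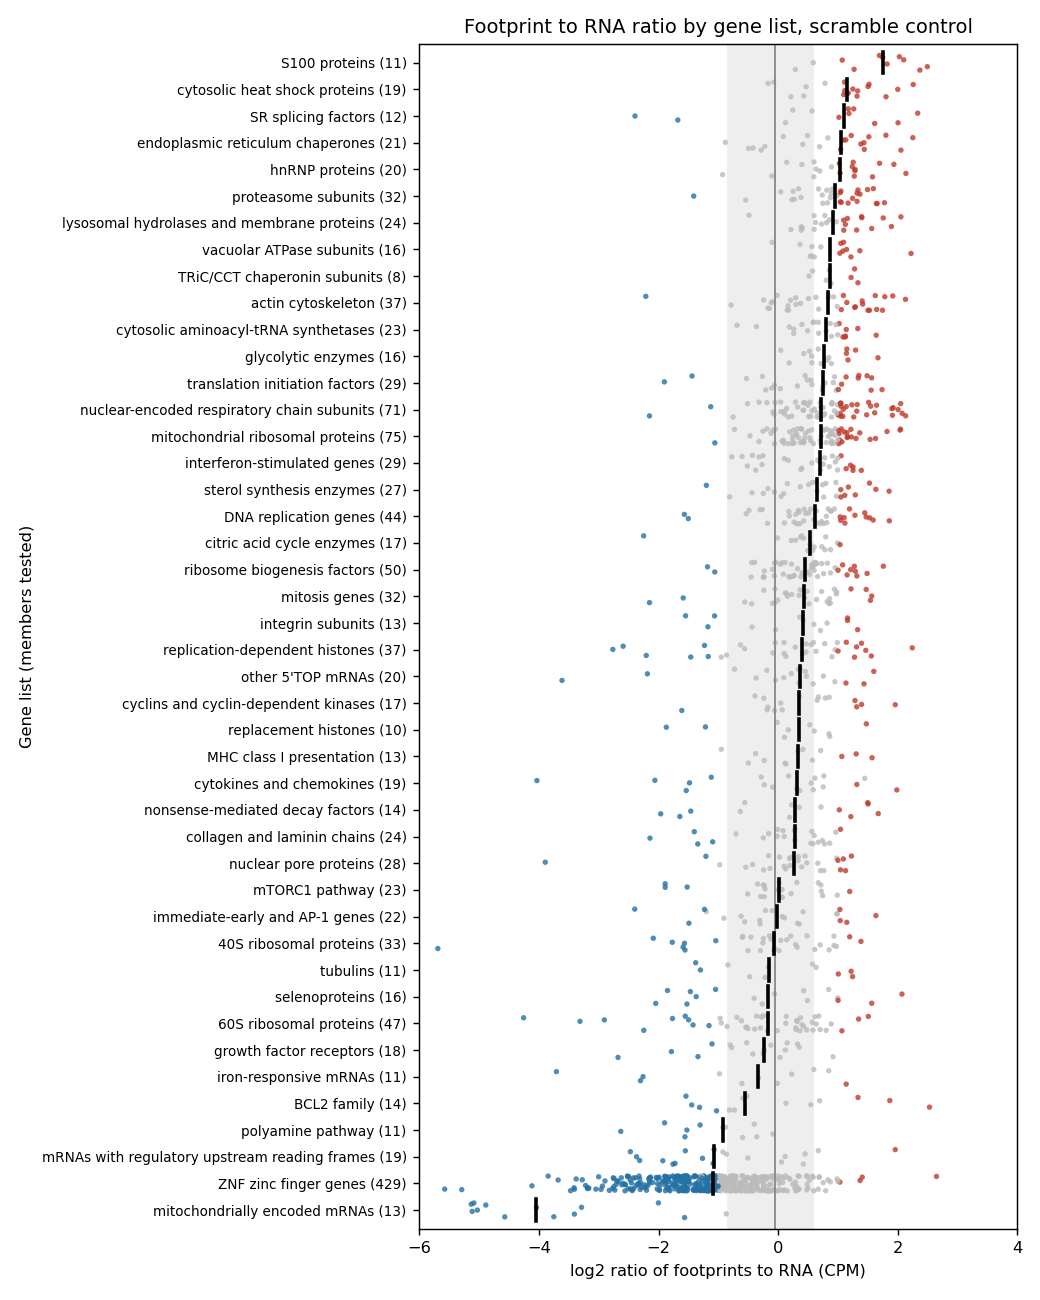
Log2 ratio of footprints to RNA for each tested member of 44 functional gene lists, ordered by the list median (black bar). Red members are called high, blue low and grey neither. The grey band holds the interquartile range of all 12042 genes and the grey line their median, -0.05; 8 members lie outside the axis, which runs from -6 to 4. S100 proteins stand highest at a median of 1.75 and mitochondrially encoded mRNAs lowest at -4.04.

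The translation machinery itself was not uniformly efficient. The 40S ribosomal proteins had a median of -0.07 with 2 of 33 high and 7 low, and the 60S proteins a median of -0.18 with 3 of 47 high and 9 low, that is 6.06% and 6.38% high and 21.2% and 19.1% low, against 11.3% and 20.3% of all genes. The sign of the 40S median changed with the processing, from -0.27 to 0.05 over the alternatives. RPLP2, the acidic stalk protein whose start is printed above, had 803, 698 and 836 CPM of RNA and 1987, 2198 and 2465 CPM of footprints (log2 ratio 1.51, SE 0.14, adjusted p = 1.64e-05). Its stalk partner RPLP0 had 6059, 5062 and 6201 CPM of RNA and 761, 740.2 and 808 CPM of footprints, -2.91. RPS29 was at 1.39, RPL23 at 1.35, RPS6 at 0.21, RPS2 at -2.09, RPL41 at -3.31 and RPL36A at -4.26. Every tested ribosomal protein gene has a pseudogene or an overlapping gene in RefSeq (55 pseudogenes for RPS2 and 52 for RPL36A), and the part of this in the single values was not tested. Summed over all genes of the subunit, 40S proteins took 3.42%, 3.46% and 3.91% of RNA counts and 3.26%, 2.90% and 2.99% of footprint counts. For 60S proteins the shares were 5.58%, 5.49% and 6.24% of RNA and 4.68%, 4.11% and 4.36% of footprints.

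Among the other TOP mRNAs EEF1A1, the most abundant of them, had 19392, 17777 and 21714 CPM of RNA and 19440.0, 31553 and 30778 CPM of footprints. The libraries overlapped and the ratio of 0.47 was not called (adjusted p = 0.0598). EEF2 at 0.10 and TPT1 at -0.73 were not called either, whereas EEF1B2 at 1.60 and EEF1D at 1.44 were high. VIM, counted here as a TOP mRNA, was at 0.45. PABPC1, the poly(A)-binding protein that represses its own mRNA, had 3472, 3321 and 3476 CPM of RNA and only 280.0, 250.3 and 307 CPM of footprints (log2 ratio -3.62, SE 0.13, adjusted p = 1.31e-06). PABPC1 has 13 pseudogenes in RefSeq. Of the 20 other TOP mRNAs 4 were high (20.0%) and 2 low (10.0%), against 11.3% and 20.3% of all genes, with a median of 0.36. A start of C followed by 4 pyrimidines was found in 395 of the 7012 tested genes with a single RefSeq start (5.63%; 3.98% of all promoters). Their median was 0.02 and that of the other genes 0.03.

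Initiation factors (10 of 29 high, 2 low, median 0.75) and aminoacyl-tRNA synthetases (7 of 23 high, 0 low, median 0.80) lay above the ribosomal proteins. In members with neither a pseudogene nor an overlap the medians were 0.49 in 11 initiation factors and 0.93 in 10 synthetases. The cap-binding protein EIF4E had 84.9, 95.2 and 95.1 CPM of RNA and 254, 210.0 and 236 CPM of footprints (log2 ratio 1.35). The low members were EIF4EBP1, the protein that sequesters EIF4E, at -1.44 and EIF4G2 at -1.90. EIF4G2, also called DAP5, starts at a GUG codon. AIMP1, a scaffold of the synthetase complex, was the highest of the synthetase list at 1.64. Ribosome biogenesis factors had 9 of 50 high and 2 low (median 0.45). WDR12 was the highest at 1.76 and NOP53 the lowest at -1.18, while FBL, the fibrillarin gene targeted in the other groups, was at -0.23 (SE 0.12, adjusted p = 0.114).

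Mitochondrial proteins divided by genome. Nuclear-encoded respiratory chain subunits had 25 of 71 high and 4 low with a median of 0.71, or 1.64-fold. NDUFS6 of complex I was the highest, with 39.2, 36.2 and 41.3 CPM of RNA and 170.3, 154 and 187 CPM of footprints (log2 ratio 2.13, SE 0.12), and NDUFA4 was at 2.05 and COX4I1 at 1.62. The 21 members with neither a pseudogene nor an overlap had a median of 0.43. Mitochondrial ribosomal proteins had 19 of 75 high and 1 low, MRPL12 at -1.06, with a median of 0.71. MRPL12 loses its call without library 3 of either kind, at -0.996 without the RNA library and -0.98 without the footprint library. Citric acid cycle enzymes had a median of 0.53, with SDHC high at 1.04 and SDHA low at -2.25. SDHC and SDHA have 5 and 4 pseudogenes in RefSeq. SDHC was under the minimum with plain totals, at 0.84, and without footprint library 3, at 0.97.

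All 13 mRNAs of the mitochondrial genome had ratios under 0 and 12 were low, with a median of -4.04. MT-CO1, which encodes cytochrome oxidase subunit I, had 29179, 16970.0 and 18119 CPM of RNA and 2060, 1252 and 588 CPM of footprints (log2 ratio -4.04, SE 0.44, adjusted p = 5.05e-05). MT-ND4, MT-ND4L, MT-ATP6 and MT-ND1 lay between -5.13 and -5.03. MT-ATP8 at -0.87 was not called and its libraries overlapped. Together these genes took 10.7%, 6.38% and 6.31% of the RNA counts and 0.66%, 0.42% and 0.17% of the footprint counts, so RNA library 1 was high and the footprint libraries differed among themselves. Mitochondrial ribosomes sit inside the organelle, differ in size from cytosolic ones and are not the target of cycloheximide. How well their footprints were recovered was not tested.

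**Figure D3:**
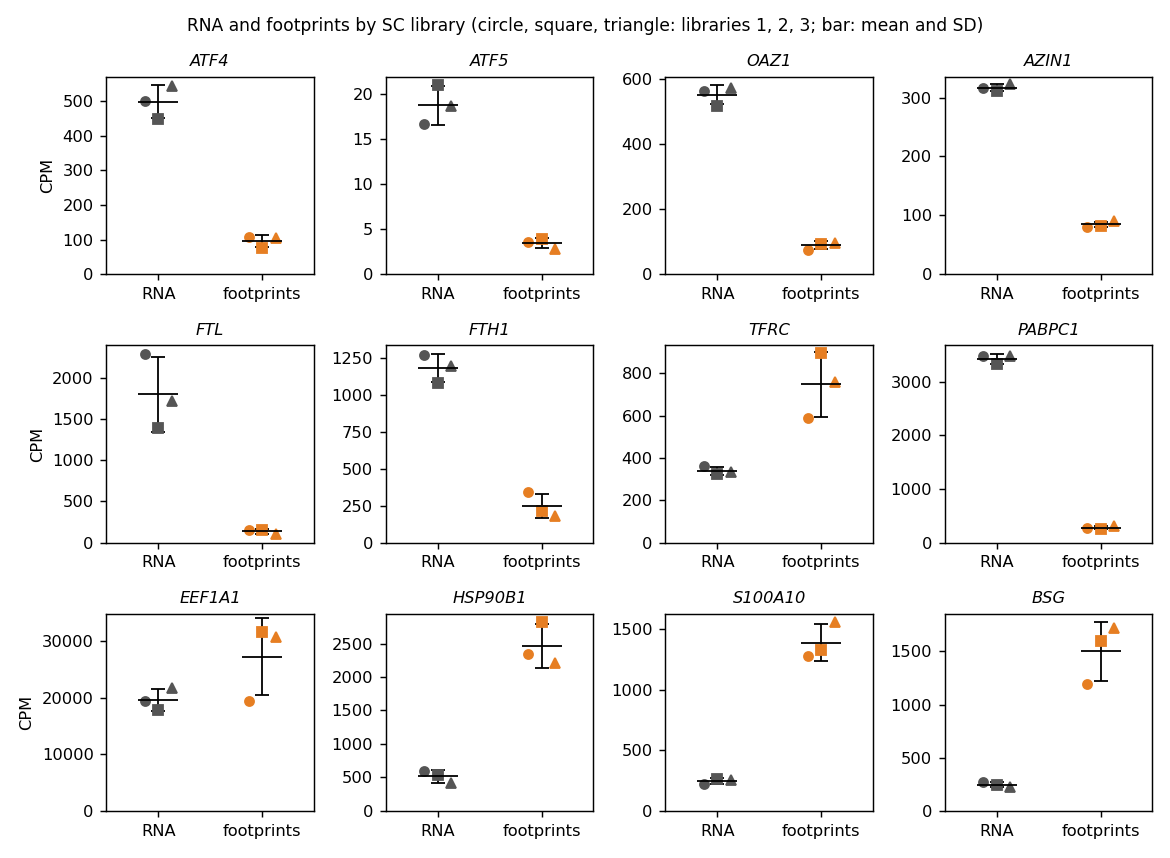
CPM of 12 genes in each of the 3 RNA and 3 footprint libraries (circle, square and triangle for libraries 1, 2 and 3), with bars for mean and SD and each axis starting at 0. ATF4, ATF5, OAZ1, AZIN1, FTL, FTH1 and PABPC1 have every footprint library under every RNA library, TFRC, HSP90B1, S100A10 and BSG have every one above, and EEF1A1 overlaps. The genes were picked for display, and the share of all genes that separate in this way is not given.

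Many mRNAs known for translational repression in unstressed cells had few footprints per RNA. In the list of mRNAs with regulatory upstream reading frames 10 of 19 were low and 1 high, against 20.3% and 11.3% of all genes, with a median of -1.07. ATF4, the transcription factor of the integrated stress response, had 499, 449 and 544 CPM of RNA and 107, 75.9 and 104 CPM of footprints (log2 ratio -2.37, SE 0.16, adjusted p = 4.29e-06). ATF5 was the lowest at -2.47, with 16.6, 20.9 and 18.6 CPM of RNA and 3.63, 3.90 and 2.81 CPM of footprints. ATF4 has 4 pseudogenes in RefSeq and ATF5 overlaps other genes. DDIT3 at -1.76 and PPP1R15A at -1.55, which act downstream of ATF4, and UCP2 at -2.32, SLC35A4 at -1.93, MDM2 at -1.09 and MIEF1 at -1.07 were low as well. MDM2 lost its call without both libraries numbered 2, at -0.99. The exception was CDKN1B, the cell cycle inhibitor p27, with 12.7, 14.9 and 13.8 CPM of RNA and 63.2, 51.6 and 45.7 CPM of footprints (log2 ratio 1.96, SE 0.16). VEGFA at 0.06, CEBPB at 0.45 and HIF1A at 0.67 were not called. The 7 members with neither a pseudogene nor an overlap had a median of -0.51. Footprints inside an upstream frame cannot be told from those in the coding sequence in counts per gene.

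The polyamine pathway is regulated by frameshifting and upstream frames, and 5 of its 11 genes were low and 0 high (median -0.92, and -1.53 in the 5 with neither a pseudogene nor an overlap). OAZ1, the antizyme whose synthesis needs a ribosomal frameshift, had 565, 519.8 and 574 CPM of RNA and 75.4, 95.02 and 97.7 CPM of footprints (log2 ratio -2.63, SE 0.14). AZIN1, the antizyme inhibitor, had 316, 311 and 322 CPM against 81.2, 82.9 and 90.2 CPM, -1.90 (SE 0.11). The biosynthetic enzymes ODC1 and AMD1 were at -1.53 and -1.31. All 11 genes had a ratio under 0, OAZ2 the nearest to it at -0.09 (adjusted p = 0.775), and OAZ2 turned positive without some libraries.

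The ferritin mRNAs and the transferrin receptor mRNA lay at opposite ends of the iron-responsive list (median -0.33). In that list 1 of 11 was high (9.09%) and 3 low (27.3%), near the 11.3% and 20.3% of all genes. In FTL and FTH1, the ferritin chains, the iron-responsive element lies in front of the coding sequence. FTL had 2284, 1390 and 1722 CPM of RNA and 156, 158 and 100.3 CPM of footprints, 13.1-fold fewer (log2 ratio -3.71, SE 0.24, adjusted p = 4.26e-06). FTH1 had 1273, 1079 and 1197 CPM against 340.2, 216 and 184 CPM (log2 ratio -2.26, SE 0.22). FTL and FTH1 have 20 and 27 pseudogenes in RefSeq, a sign of reads that could be shared. TFRC, the transferrin receptor, carries its elements behind the coding sequence, where they act on mRNA stability. It had 360, 326 and 331 CPM of RNA and 587, 897 and 756 CPM of footprints (log2 ratio 1.14, SE 0.16). TFRC fell under the 2-fold minimum with plain library totals (0.94) and without footprint library 2 (0.99). The iron exporter SLC40A1, with 3 footprint counts in each library, was at -2.30. EPAS1 at -0.98 and ALAS1 at 0.23 were not called. CAGTG, the start of the loop motif, was found on the transcribed strand in the first 50 bases of 340 of the 7012 genes (4.85%; 6.41% of all promoters), whose median was 0.11 against 0.02 for the rest.

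Selenoproteins, which read UGA as selenocysteine, were widely spread. Of 16 tested, 3 were high (18.75%) and 6 low (37.5%), against 11.3% and 20.3% of all genes. Their median was -0.16, and 0.22 in the 6 with neither a pseudogene nor an overlap. GPX4, the lipid peroxide reductase that guards against ferroptosis, had 279, 228 and 245 CPM of RNA and 84.3, 98.5 and 89.9 CPM of footprints (log2 ratio -1.47, SE 0.13). SELENOW at -1.85, GPX1 at -1.37 and SELENON at -2.05 were low, while SELENOK, an endoplasmic reticulum membrane protein whose selenocysteine lies near its C-terminus, had 23.1, 23.7 and 25.7 CPM of RNA and 93.8, 117 and 95.5 CPM of footprints, 2.07 (SE 0.13). TXNRD1, the cytosolic thioredoxin reductase, was at -0.27 and not called.

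Regulators of growth and death varied gene by gene, and their counts are to be read against the 11.3% high and 20.3% low of all genes. Immediate-early and AP-1 genes had 4 of 22 high and 3 low with a median of -0.02, whose sign changed with the processing. SRF, the factor that drives many of them, had 100.8, 100.2 and 107 CPM of RNA and 21.8, 17.4 and 18.5 CPM of footprints, -2.40 (SE 0.13), and CCN2 was high at 1.64. MYC at 0.42, JUN at 0.10 and CCND1 at 0.86 were not called. In the BCL2 family 3 of 14 were high and 4 low (median -0.56, and 0.13 in the 11 with neither a pseudogene nor an overlap). The short-lived survival factor MCL1 had 193, 207 and 217 CPM of RNA and 549, 465 and 544 CPM of footprints (log2 ratio 1.34, SE 0.12), and PMAIP1 (NOXA), its antagonist, was the highest at 2.53. BOK at -1.54, BCL2L11 (BIM) at -1.45, BAK1 at -1.31 and BCL2L2 at -1.03 were low. Of 18 growth factor receptors 0 were high and 4 low (22.2%, near the 20.3% of all genes), DDR2, EPHB4, FGFR4 and DDR1, and EGFR was at 0.12. Cytokines had 2 of 19 high, with CXCL8 (interleukin 8) at 1.98, and 5 low, among them LIF at -1.54 and CXCL2, which had 0 to 2 footprint counts. KISS1, encoding kisspeptin, was at 1.44 and fell to 0.82 without both libraries numbered 2. Without both numbered 3 it was 1.42 with an adjusted p of 0.0577. Cell cycle lists had medians above the -0.05 of all genes. The values were 0.62 for DNA replication (11 of 44 high, 2 low), 0.43 for mitosis (4 of 32 high, 2 low) and 0.36 for cyclins and their kinases (4 of 17 high, 1 low).

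Histone mRNAs are counted singly with doubt, as shown by the H4 genes. Of 37 replication-dependent histone genes tested 9 were high (24.3%) and 8 low (21.6%), against 11.3% and 20.3% of all genes. Their median of 0.41 reached -0.03 under one alternative. As sums over tested and untested genes, H2A genes were at 0.66, H3 genes at 0.29 and H2B genes at -0.27 against 1.40 for H4 genes. Both RNA and footprint sums varied between libraries, with 1244 to 1899 CPM of H4 RNA. Of the replacement histones, H2AZ1 was high at 1.48 and H3-3B low at -1.87, with 294, 306 and 340 CPM of RNA and 109.5, 60.3 and 84.4 CPM of footprints.

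Zinc finger genes made up the broadest class with few footprints per RNA. Of 429 tested genes whose symbol starts with ZNF, 230 (53.6%) were low and 4 (0.93%) high, against 20.3% and 11.3% of all genes, and the median was -1.09. Over all processing alternatives the median stayed between -1.29 and -0.93, and it was -1.06 in the 323 with neither a pseudogene nor an overlap. Neither sign detects sequence that zinc finger genes may share with each other, and its part in the ratios was not tested. They took 0.81% ± 0.04 of RNA counts and 0.37% ± 0.04 of footprint counts (SD, n = 3). ZNF91, a repressor of retrotransposons, had 94.3, 63.5 and 73.2 CPM of RNA and 12.3, 2.60 and 7.30 CPM of footprints (log2 ratio -3.22, SE 0.33). ZNF726 was the highest at 2.65, from 2.43 to 12.3 CPM of footprints and at most 1.40 CPM of RNA.

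Grouping genes only by the letters at the start of their symbol gave 76 families of at least 15 tested genes. ZNF genes ranked 6 from the lowest. Below them were ARHGAP (GTPase-activating proteins) at a median of -1.36 with 13 of 25 low, ZDHHC (palmitoyltransferases) at -1.31 with 11 of 20 low, KIAA, the BTB zinc fingers ZBTB at -1.12 with 19 of 37 low, and BCL. ANKRD, PHF and DENND genes came next above. The highest families were TSPAN (tetraspanins) at 0.94 with 7 of 15 high, SMIM (small integral membrane proteins) at 0.83, MRPL at 0.81 and COX at 0.73 with 8 of 20 high. These counts are to be read against the 11.3% high and 20.3% low of all genes. No ZBTB or ZDHHC gene was called high and no COX or SMIM gene was called low. Such absences were not particular to these families. DENND, ARHGEF and KDM also had 0 high genes, and MRPS, NUP and DDX had 0 low genes.

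**Figure D4:**
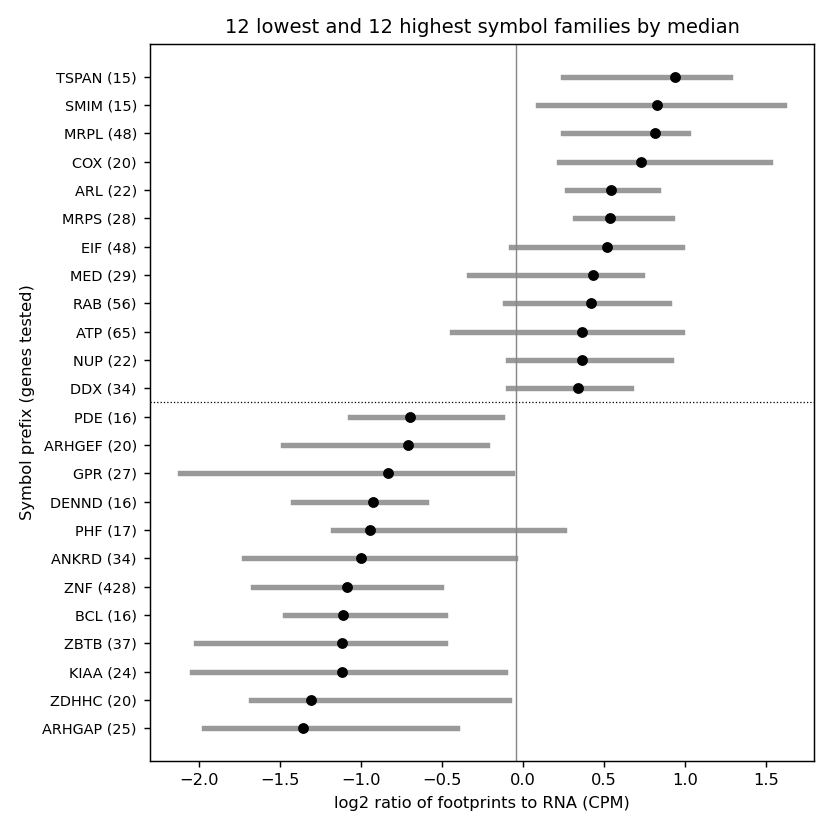
Median log2 ratio (dot) and interquartile range (grey bar) of the 12 lowest and 12 highest of 76 families of genes that share a symbol prefix, with the number of genes tested in brackets. The vertical line is the median of all tested genes, -0.05. ARHGAP is lowest at -1.36 and TSPAN highest at 0.94.

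Among the 2380 genes with at least 50 CPM of RNA and neither a pseudogene nor an overlap, a selection made after the values were seen, the lowest nuclear genes were ZNF358, USF3, POM121 and MAP3K11. The mitochondrially encoded mRNAs are left out of this count of the low end. The selection does not screen out near-identical copies, and POM121 has one, POM121C. MAP3K11, a kinase upstream of JNK, had 106, 98.0 and 108 CPM of RNA and 8.65, 6.94 and 6.74 CPM of footprints (log2 ratio -3.78, SE 0.15). VEGFB, a vascular growth factor, was at -3.73, the adaptor SH2B3 at -3.59, the galactosyltransferase B4GALT2 at -3.46, the adhesion gene TENM1 at -3.42, the DNA polymerase subunit REV3L at -3.22, ZNF91 at the same ratio and IRAK1, a kinase of Toll-like receptor signalling, at -3.17. IRAK1 had a mean of 538 CPM of RNA and 59.8 CPM of footprints, so low ratios were also found among abundant mRNAs. The high end of the same selection held SERINC1, BSG, S100A10, DERL1 of the endoplasmic reticulum degradation channel at 2.35, HSP90B1 and CFL2, a cofilin, at 2.20.

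The base composition of the mRNA start went with the ratio. Of the 7012 genes with a single RefSeq start, 772 had a GC content of 80% or more in the first 50 transcribed bases, and their median was -0.60 with 23 high (2.98%) and 274 low (35.5%). In the 2486 genes with 60 to 70% GC the median was 0.19 with 16.2% high and 15.0% low, and in the 291 under 50% it was 0.03, so the fall lay at the GC-rich end. The median in genes of 80% or more with neither a pseudogene nor an overlap was -0.55. Spearman's rank correlation over the 7012 genes was -0.18, and -0.21 without ZNF genes, a weak relation across genes that share libraries. The 250 untranscribed bases before the start gave a like pattern, with a median of -0.60 in the 379 genes of 80% or more and a rank correlation of -0.14. Whether one goes with the ratio apart from the other was not tested. An ATG in the first 50 bases made little difference, with medians of 0.05 for the 2368 genes that have one and 0.01 for the 4644 that do not.

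**Figure D5:**
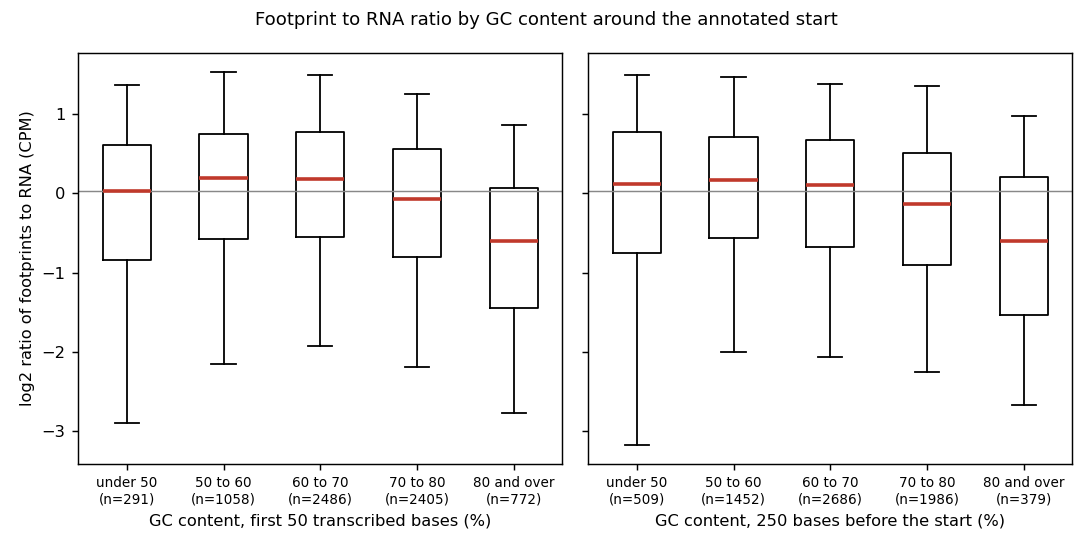
Log2 ratio by GC content of the first 50 transcribed bases (left) and of the 250 bases before the start (right) for 7012 genes with one RefSeq start. Boxes hold the interquartile range with the median in red, whiskers run from the 5th to the 95th percentile, and the grey line is the median of these genes, 0.03. The median is -0.60 in genes of 80% GC and over in both panels.

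All 10 markers of the mesenchymal line MDA-MB-231 were tested, among them VIM at 5539, 4449 and 4989 CPM of RNA. Of these 3 were called high, among them CD44 at 1.5 and CAV1 at 1.02, and 0 low. AXL had the lowest ratio at -0.24. Of 9 epithelial and luminal markers that the line is known to hold at low levels, ESR1, PGR, CDH1 and KRT5 had too few counts to be tested. ERBB2 was present at 93.5, 78.1 and 84.1 CPM of RNA, GATA3 at 6.83 to 7.69, EPCAM at 4.38 to 5.58, and FOXA1 and KRT14 at no more than 1.02. Of these 5, EPCAM was called high at 1.29 (0.98 without both libraries numbered 3) and FOXA1 low at -2.10. Of 9 markers of blood, endothelial, muscle and liver cells, only PECAM1 and PTPRC, at no more than 3.10 CPM of RNA, were tested.

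The ranking was set beside the same ratio in the 2 hairpin groups, in a single fit of 18 libraries with 12531 genes. Spearman's rank correlation across genes was 0.89 between SC and SH2 and 0.90 between SC and SH3. Of 1392 genes high in SC in that fit, 994 (71.4%) were high in SH2 and 945 (67.9%) in SH3, which is 66.5% of the SH2 and 77.5% of the SH3 high genes. Of 2561 low in SC, 2072 (80.9%) and 1987 (77.6%) were low there. No gene was high in one and low in the other. The list medians were close for zinc finger genes (-1.09 in SC, -1.10 in SH2, -1.03 in SH3) and lay at 1.75, 1.32 and 1.36 for S100 proteins. Those of 40S proteins were -0.08 in SC, 0.53 in SH2 and 0.36 in SH3, and those of 60S proteins -0.18, 0.59 and 0.45, differences that were not tested here.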

How the data were processed

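Ribosome footprints and cytoplasmic RNA were measured in 3 SC libraries each, by SC labels in the sample titles. The deposited table gives raw read counts per gene, made by the authors. Its second set of columns holds DESeq2-normalized signal, per the file headers, which is the count over 1 factor per library, and served here as an alternative scaling only. Bowtie 1.2.2 and DESeq2 are named in the submitters' processing notes. The counting tool, annotation, genome build and treatment of reads matching several places are not given in the sources used here. The table's labelling carries a range that reads as a footprint length selection.

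The counts of the 6 libraries were fitted with edgeR 4.0.16 (R 4.3.3) by the quasi-likelihood test, after filterByExpr and TMM scaling, with library kind as the only term and Benjamini-Hochberg adjustment over 12042 genes. The biological coefficient of variation was 14.8%. CPM are counts scaled to the TMM-adjusted library total. The SE is the log2 ratio over the square root of F. The floor is 3 counts per library, and counting intervals were not used. The fit was tested on simulated data with known ratios. Counts vary with depth, so low genes in the footprint libraries are least precise: 282 tested genes were at the floor there and 9 in RNA.

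Named genes were the 15 highest called high and 15 lowest called low with at least 10 CPM in either kind, the highest and lowest member of each list, and 28 mRNAs known for translational control or as references. A few genes that this rule names are not reported here. Members and lists were chosen with earlier results of these data known, so lists are described by counts and medians with no set test. Symbols were matched to RefSeq (GRCh38.p14): 11848 tested symbols are current, 171 synonyms and 23 unmatched. Pseudogenes and overlaps come from that table. Alternatives were plain totals, DESeq2 and deposited size factors, 2 other count filters, DESeq2's Wald test (1.42.0), no fold minimum, glmTreat, thinning to 2486598 counts, a replicate block, all 18 libraries, each library or number left out, and genes with neither a pseudogene nor an overlap; the deposited factors and the last were added after seeing the data.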

Additional observations from a re-analysis of the deposited data

How the results depend on the processing

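The number of genes called high was 862 with plain library totals, 3583 with no fold minimum, 593 with glmTreat against a log2 ratio of 1 and 756 among genes with neither a pseudogene nor an overlap, against 1361. The number called low was 3913, 1424 and 1570 in the last 3 of these, against 2442. The fold minimum and the set of genes account for these by construction, and for plain totals the shift of the median by -0.20 does. Leaving out a library or a number gave 1254 to 1467 high and 2092 to 2582 low genes. Other filters, size factors, DESeq2's Wald test, thinning and the fit of 18 libraries stayed within 1.5 times.

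Genes near 0 that were not called changed sign under some settings, and the cause was not tested. Leaving out a library or a number moved PFKL (0.04) between -0.0576 and 0.15, OAZ2 (-0.09) between -0.48 and 0.14, HSPA1B (-0.17) between -0.67 and 0.18, AXL (-0.24) between -0.60 and 0.19, and PECAM1 (-0.12) between -0.70 and 0.33. With plain totals PFKL was at -0.16, EEF2 (0.10) at -0.10 and JUN (0.10) at -0.0902. With at least 10 counts in each library they were at -0.0742, -0.0227 and -0.0126, and PFKL was at -0.00710 after thinning.

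Of 165 named genes, 20 lost their call with glmTreat and none turned. The largest loss from leaving out both libraries of a number was 10 genes, without replicate 3.

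With the replicate number as a block, 1299 genes were high and 2329 low, and of the named genes FOXA1 lost its call (adjusted p = 0.0566 in edgeR's quasi-likelihood test). Deviations of same-numbered RNA and footprint libraries correlated at -0.36, -0.32 and 0.19, so the numbers were not taken to pair them, although each lysate was split per the labels' protocols. RNA 1 with footprint 2 was at 0.41 and RNA 2 with footprint 1 at 0.35, so not every library correlated best with its own number. This bears on the block and on leaving out both libraries of a number.

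Depth limits the low end: footprint library 2 has 2486598 counts, and a gene without footprints there cannot be told from one with few.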
